A study of Mus musculus with 18 samples.

Results

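The cells described here are 1151, a mouse pancreatic tumour line without a working gene for the mitochondrial calcium uniporter, compared with the same line after MCU was put back. All 6 of the series' 18 libraries that belong to line 1151 were used: 3 from Mcu Cre-knockout cells carrying an empty vector, called the knockout below, and 3 from Mcu Cre-knockout cells re-expressing MCU, called the re-expressing cells. The lines of the series came from KPCY mice, some of which also had a floxed Mcu gene. These mice carry a mutant Trp53 allele, LSL-R172H/+, beside a mutant oncogene, both switched on by the pancreatic driver Pdx1-Cre, and the yellow fluorescent reporter R26LSL-Yfp/LSL-Yfp. Both groups thus share these alleles and the same Mcu knockout, and they differ in what the vector expresses. Both were grown untreated in DMEM with 10% serum and with 2 μg/mL puromycin, and all 6 libraries are labelled batch 1. The labels give 1 cell line name to the 3 knockout libraries and 1 name to the 3 re-expressing libraries, so each group is 1 cell population, and nothing says that its libraries came from separate cultures. The p-values therefore measure the spread between these libraries, which may be technical, and a change between the populations that MCU did not bring about cannot be told apart from one that it did. The unmodified parent of line 1151 is not analysed here.

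MCU is the pore of a channel in the inner mitochondrial membrane through which calcium enters the matrix. EMRE, encoded by Smdt1, and further regulatory subunits control it, and the calcium that enters is known to stimulate matrix dehydrogenases and to shape calcium signals in the cytosol. Pdx1-Cre KPCY tumours model pancreatic ductal adenocarcinoma, whose cells can keep or lose gastric-like, glandular features.

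Expression was deposited as TPM, a gene's length-corrected share of the transcripts of its library. Genes with at least 1 TPM in 3 or more of the 6 libraries were kept, 11630 of 35642. A change is the knockout minus the re-expressing mean of log2(TPM + 1), which understates the change of low genes. A gene is called higher (rose) or lower (fell) in the knockout where limma's Benjamini-Hochberg adjusted p over all tested genes was under 0.05. Values written as a pair are mean TPM in the knockout against mean TPM in the re-expressing cells, n = 3 libraries each, and a ± after a log2 change is its standard error. TPM holds no read counts, so the depth behind a value is unknown. In bulk RNA, fewer cells of a kind and less RNA per cell cannot be told apart.

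The labelled cell type was checked against marker lists. Of 14 ductal tumour markers 11 were measured, with Krt8 at 2184 against 2683 TPM, Krt18 at 2694 against 1837 TPM and Krt19 at 385 against 826 TPM. Epcam lay under the filter at 0.575 to 1.67 TPM over the 6 libraries and Mmp7 was listed at 0. None of 17 acinar markers passed the filter. Their sum was 0.48 to 2.56 TPM in the knockout and 0.47 to 2.09 TPM in the re-expressing libraries, and 11 of them, Prss1, Cpa1 and Ptf1a included, were listed at 0. The sum of 21 immune markers was 3.20 to 4.71 and 2.19 to 4.81 TPM, with Cd3e, Cd4, Adgre1 and C1qa at 0. The sum of 14 endothelial markers was 27.8 to 30.4 TPM in the knockout and 54.1 to 55.9 TPM in the re-expressing libraries. Tek, Tie1, Emcn, Cldn5 and Erg were at 0, but 4 of the 14 passed the filter, of which 1 rose and 3 fell. Of 17 fibroblast markers, Vim and Fbln1 passed the filter, and Col1a2, Lum and Postn were at 0. Fbln1, a matrix glycoprotein, rose (15.9 against 3.03 TPM, log2 change 2.06 ± 0.088), and its part in the rises of Cdh2 and actin genes given below was not tested.

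Mcu (GRCm38 chromosome 10, 59446984-59616692, minus strand) itself does not check the labels. It read 16.6, 15.1 and 13.3 TPM in the knockout libraries and 14.4, 15.2 and 13.1 TPM in the re-expressing libraries (log2 change 0.07, SE 0.099, adjusted p = 0.581). The groups overlapped, and a value per gene does not show from which exons the reads came. Trp53 rose (249 against 168 TPM, log2 change 0.57 ± 0.049).

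Libraries of 1 group resembled each other more than those of the other, with r of log2(TPM + 1) of 0.97 to 0.99 within and 0.89 to 0.91 between groups. Changes moved with transcript length: in 10 bins of genes the median log2 change went from -0.14 at a median length of 928 bases to 0.31 at 8132 bases (Spearman's rank correlation 0.21 over 11410 genes, a description, with 6 shared libraries). Knockout library 3 stood apart from the other knockout libraries in short transcripts. In the shortest bin the 3 knockout libraries lay -0.13, -0.08 and 0.00 from the all-library mean and the re-expressing libraries 0.09, 0.08 and 0.10. Values after centring the changes over length, or by chromosome, stand beside several lists below, and the part of either in the results was not otherwise tested. Changes also moved with the chromosome: medians over tested genes were 0.52 on chromosome 19, 0.45 on 15, 0.34 on 10, 0.31 on 17 and -0.28 on 8, and between -0.07 and 0.27 on the other chromosomes.

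Of the 11630 genes, 3958 (34.0%) were higher and 3140 (27.0%) lower in the knockout, and 874 (7.52%) rose and 697 (5.99%) fell by at least 1 on the log2 scale. The median change over all tested genes was 0.05, and for 7812 genes (67.2%) every knockout library lay on 1 side of every re-expressing library. A list's counts below are read against these shares, and a gene that merely passed the test is nothing out of the ordinary in this comparison. Most genes named below were also chosen for groups without overlap, so a lack of overlap is no separate finding about them. With the spread estimated over all 18 libraries of the series in place of these 6, the genes described below that no longer passed the test were Acaca, Afg3l2, Atp2a2, Btc, Cct4, Cdh1, Gata6, Hif1a, Hnf4a, Irs1, Itpr3, Mcur1, Mfn1, Mfn2, Ogdh, Pdha1, Slc7a11, Srebf2 and Ubtf, 19 in all.

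**Figure D1:**
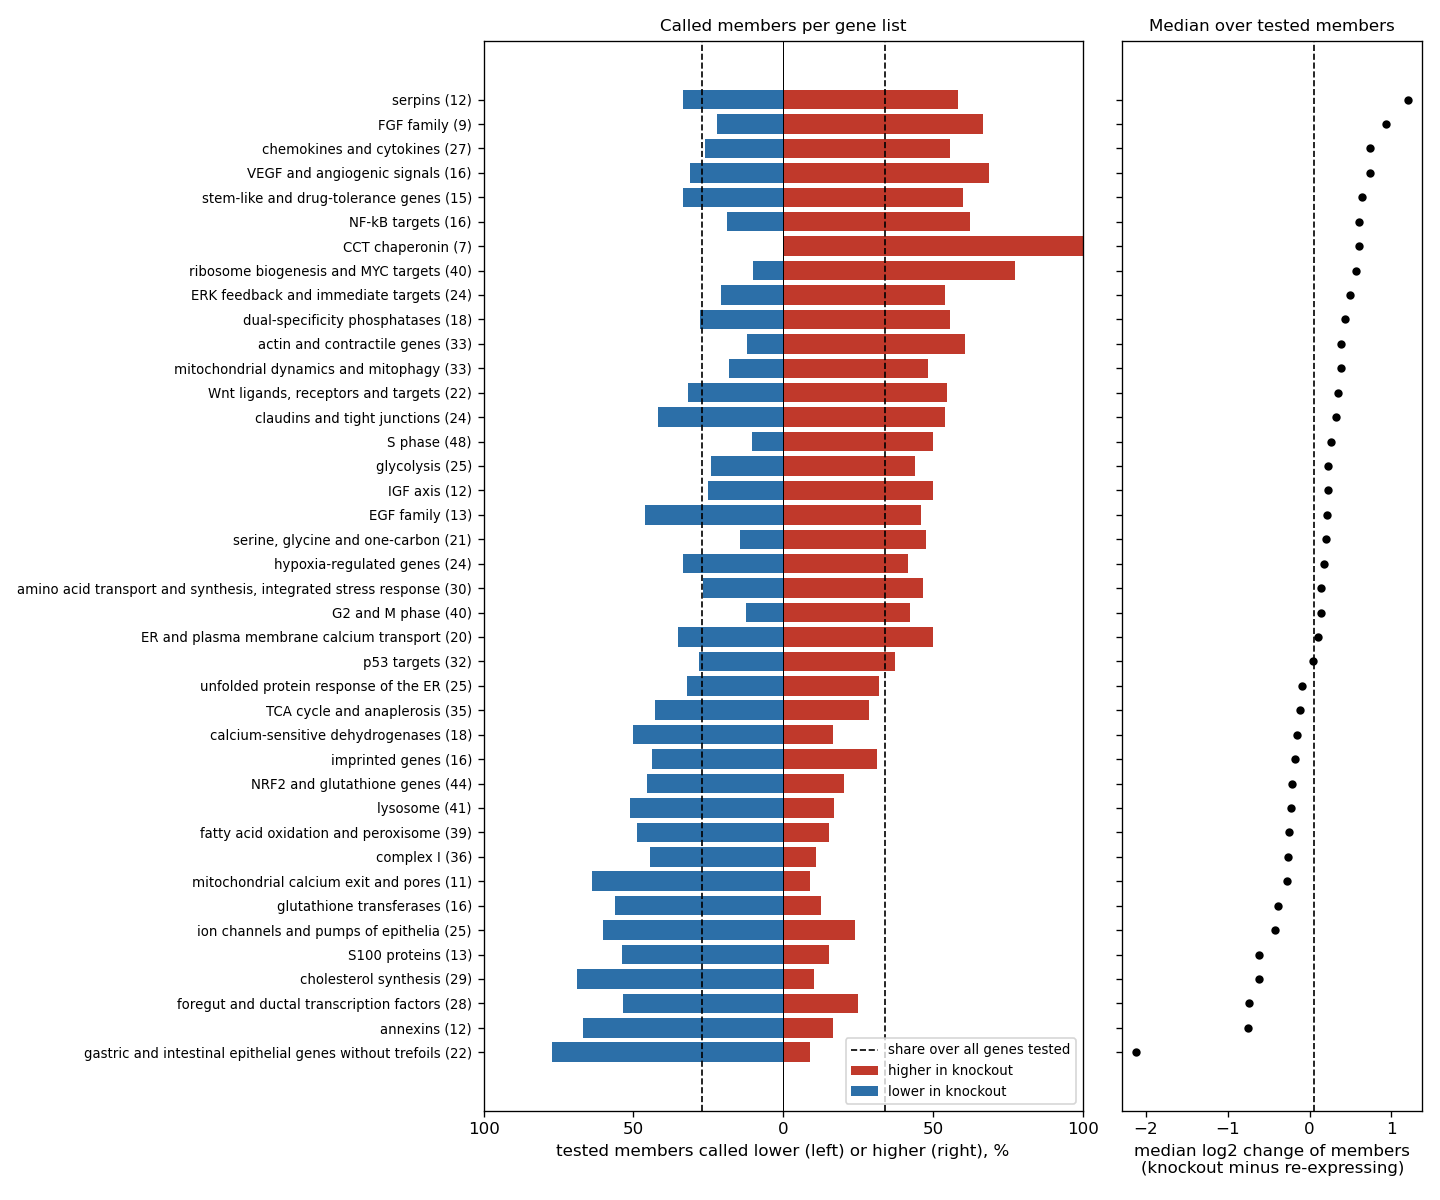
Left, share in percent of the tested members of 40 gene lists called higher (red, right of 0) or lower (blue, left of 0) in the knockout, with the number of tested members in brackets and dashed lines at the shares over all tested genes, 34.0% and 27.0%. Right, median log2 change of the same members, with a dashed line at the all-gene median of 0.05. Gastric and intestinal genes, annexins, foregut transcription factors and cholesterol synthesis lie at the low end, and serpins, FGF family genes, chemokines and VEGF genes at the high end.

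Growth factor signalling differed in ligands and receptors at once. RET, a receptor tyrosine kinase, is switched on by the ligand GDNF together with a co-receptor, and AXL is the receptor for GAS6; both pairs are textbook growth and survival signals. Ret (GRCm38 chromosome 6, 118151745-118197718, minus strand) stood at 12.5, 13.6 and 14.9 TPM in the knockout libraries and at 0.0619, 0.0985 and 0.0142 TPM in the re-expressing libraries (log2 change 3.79, SE 0.10, adjusted p = 6.21e-07). Gdnf read 5.24, 5.24 and 5.09 against 0, 0.0187 and 0 TPM (log2 change 2.62, SE 0.096, adjusted p = 2.38e-06). Receptor and ligand were thus both measured in every knockout library and at or near 0 in every re-expressing library. Gas6 read 7.08, 7.26 and 6.98 TPM in the knockout and 0, 0 and 0.0499 TPM in the re-expressing libraries (log2 change 3.00, SE 0.094, adjusted p = 1.26e-06). Axl read 370.4, 366 and 342 against 198, 191 and 192 TPM (log2 change 0.89, SE 0.054, adjusted p = 1.81e-05). Axl was high in both groups and higher in all 3 knockout libraries, whereas Gas6 was found almost only in the knockout.

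Among 16 tested VEGF and angiogenic genes, 11 rose and 5 fell (median log2 change 0.73). VEGF ligands act on the receptor kinases encoded by Flt1, Kdr and Flt4, best known from endothelium. Vegfa, the main ligand, read 138, 126 and 101 TPM in the knockout libraries and 32.8, 29.8 and 33.2 TPM in the re-expressing libraries (log2 change 1.89, SE 0.12, adjusted p = 1.83e-05). Pgf, placental growth factor, rose (19.7 against 2.598 TPM, log2 change 2.52 ± 0.22), as did Pdgfb (37.3 against 11.3 TPM, log2 change 1.65 ± 0.071). Every knockout library was above every re-expressing library for these ligands. Of the receptors, Flt4 read 20.005, 19.01 and 20.6 against 0.712, 0.869 and 0.941 TPM (log2 change 3.51, SE 0.089, adjusted p = 5.11e-07) and Kdr 8.24, 8.66 and 8.63 against 0.723, 0.859 and 0.72 TPM (log2 change 2.43, SE 0.09, adjusted p = 2.51e-06). Flt1 went the other way, at 9.91 against 16.9 TPM, log2 change -0.71 ± 0.11, as did the ligand Angpt2 (3.61 against 11.5 TPM, log2 change -1.46 ± 0.18) and Angptl4 (31.6 against 74.4 TPM, log2 change -1.21 ± 0.089), so the family did not move as a block. The endothelial markers given above fell in sum while Flt4 and Kdr rose.

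In the EGF family, whose ligands bind EGFR and the ERBB receptors, 6 of 13 tested members rose and 6 fell. Egfr read 10.1, 10.5 and 9.93 TPM in the knockout libraries and 0.457, 0.472 and 0.958 TPM in the re-expressing libraries (log2 change 2.79, SE 0.14, adjusted p = 7.25e-06). Erbb2 fell (16.9 against 28.6 TPM, log2 change -0.73 ± 0.073), and so did Erbb3 (2.02 against 5.203 TPM, log2 change -1.04 ± 0.11). Egfr was thus higher and its 2 relatives lower in every knockout library, and Egfr was under 1 TPM in each re-expressing library. Among ligands, Hbegf rose (76.3 against 48.3 TPM, log2 change 0.65 ± 0.061), Nrg1 rose (20.1 against 13.1 TPM, log2 change 0.57 ± 0.14) and Btc fell (17.8 against 26.4 TPM, log2 change -0.54 ± 0.087).

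FGF receptors showed a like exchange: Fgfr2 read 16.7, 16.4 and 16.1 against 1.18, 1.11 and 1.13 TPM (log2 change 3.03, SE 0.077, adjusted p = 5.11e-07), while Fgfr4 fell (0.544 against 3.71 TPM, log2 change -1.61 ± 0.15). Fgf1, a ligand for all FGF receptors, fell from 36.8, 37.6 and 37.98 TPM in the re-expressing libraries to 9.97, 9.39 and 12.6 TPM in the knockout libraries (log2 change -1.73, SE 0.11, adjusted p = 1.93e-05), and Fgf18 rose (7.47 against 1.48 TPM, log2 change 1.76 ± 0.12). Over the family 6 of 9 tested members rose and 2 fell. In the IGF axis, Igf1r, the receptor for insulin-like growth factors, read 27.98, 25.3 and 22.5 against 6.77, 8.73 and 8.87 TPM (log2 change 1.53, SE 0.12, adjusted p = 6.24e-05), and its adaptor Irs2 19.4, 19.8 and 18.8 against 5.75, 5.18 and 5.12 TPM (log2 change 1.68, SE 0.074, adjusted p = 4.96e-06). The other adaptor, Irs1, fell (3.503 against 6.85 TPM, log2 change -0.81 ± 0.097). Igfbp4, a secreted protein that binds and withholds these factors, was the axis's most abundant member in the re-expressing cells at 727, 648 and 759 TPM and read 169, 174 and 174 TPM in the knockout (log2 change -2.04, SE 0.07, adjusted p = 1.81e-06). Receptor and Irs2 were thus high where the binding protein was low.

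Wnt ligands bind Frizzled receptors with LRP5 or LRP6 and act through beta-catenin or other branches. Wnt7a read 59.1, 61.1 and 69.1 TPM in the knockout libraries and 11.03, 11.4 and 11.6 TPM in the re-expressing libraries (log2 change 2.37, SE 0.074, adjusted p = 1.26e-06). Wnt7b read 75.5, 78.4 and 82.3 against 19.02, 20.2 and 19.7 TPM (log2 change 1.95, SE 0.058, adjusted p = 1.05e-06). Both ligands were higher in each knockout library. Wnt4 fell (0.781 against 5.29 TPM, log2 change -1.83 ± 0.12), Fzd5 fell (18.4 against 33.2 TPM, log2 change -0.81 ± 0.06), and Fzd4 (6.22 against 2.06 TPM, log2 change 1.24 ± 0.094), Fzd2 (8.46 against 3.79 TPM, log2 change 0.97 ± 0.11) and the kinase receptor Ror1 (7.58 against 1.17 TPM, log2 change 1.98 ± 0.09) rose. Ctnnb1, which encodes beta-catenin, fell (631 against 904 TPM, log2 change -0.52 ± 0.068). Among genes that beta-catenin is known to turn on, Axin2 rose (1.98 against 0.506 TPM, log2 change 0.98 ± 0.11), Rnf43 rose (9.42 against 4.11 TPM, log2 change 1.02 ± 0.12) and Sp5 fell (1.24 against 3.82 TPM, log2 change -1.12 ± 0.19), so its targets split. Over the list 12 of 22 tested members rose and 7 fell; its median of 0.34 became -0.06 after centring over transcript length. In the Notch pathway, the receptor Notch2 rose (20.4 against 7.99 TPM, log2 change 1.25 ± 0.067) with the ligands Jag2 (27.04 against 10.9 TPM, log2 change 1.26 ± 0.21) and Dll1 (5.89 against 2.71 TPM, log2 change 0.91 ± 0.16). Notch1 read 9.93, 4.82 and 3.24 TPM in the knockout libraries, a wide spread, and did not pass the test (5.999 against 8.91 TPM, log2 change -0.61 ± 0.33, adjusted p = 0.145). The target Hes1 did not pass it either (60.99 against 66.7 TPM, log2 change -0.13 ± 0.056), and Hey1 rose from a low level (1.35 against 0.0675 TPM, log2 change 1.13 ± 0.12).

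**Figure D2:**
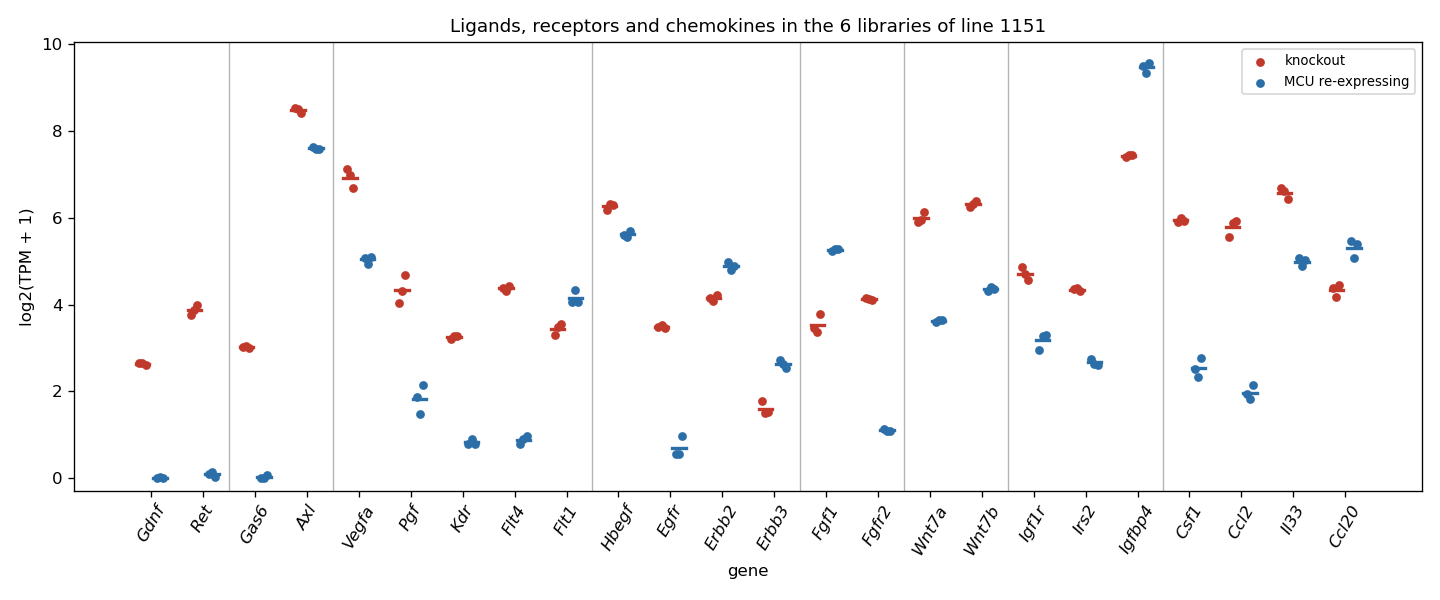
log2(TPM + 1) of 24 ligands, receptors and chemokines (x axis) in each of the 3 knockout libraries (red) and 3 re-expressing libraries (blue), with a bar at each group mean and thin vertical lines between gene families. Gdnf, Ret and Gas6 lie at or near 0 in the re-expressing libraries; Erbb2, Erbb3, Fgf1, Igfbp4 and Ccl20 are lower in the knockout, and Igfbp4 falls from 711 to 172 TPM.

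Of 27 tested chemokines and cytokines, 15 rose and 7 fell, against 34.0% and 27.0% of all genes, with a median log2 change of 0.74. Csf1, the growth factor that macrophages depend on, read 58.7, 62.8 and 59.99 TPM in the knockout libraries and 4.73, 4.01 and 5.85 TPM in the re-expressing libraries (log2 change 3.40, SE 0.12, adjusted p = 1.81e-06). Ccl2, which draws monocytes, read 46.1, 58.4 and 59.9 against 2.84, 2.53 and 3.39 TPM (log2 change 3.83, SE 0.13, adjusted p = 1.70e-06). The alarmin Il33 read 102, 96.9 and 85.7 against 32.4, 28.4 and 31.7 TPM (log2 change 1.59, SE 0.085, adjusted p = 1.05e-05). All 3 were higher in every knockout library. The neutrophil attractant Cxcl1 was low in the knockout (6.11, 5.996 and 4.08 TPM) and nearly unmeasured in the re-expressing cells (0.0894, 0 and 0 TPM), Csf2, or GM-CSF, rose (5.82 against 1.36 TPM, log2 change 1.52 ± 0.16), and Cxcl16 rose (13.98 against 4.44 TPM, log2 change 1.47 ± 0.11). In the other direction went Ccl20 (19.2 against 38.97 TPM, log2 change -0.98 ± 0.13), the T cell cytokine Il15 (0.421 against 3.28 TPM, log2 change -1.57 ± 0.20), Ccl27a (9.68 against 22.2 TPM, log2 change -1.12 ± 0.063) and Cx3cl1 (7.703 against 15.9 TPM, log2 change -0.95 ± 0.084).

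NF-kB, the transcription factor downstream of inflammatory receptors, has targets among these genes. Of 16 tested targets and pathway genes 10 rose and 3 fell (median log2 change 0.61; 8 and 3, with a median of 0.25, with changes centred by chromosome). Tnfaip3, the pathway's feedback inhibitor A20, read 29.3, 26.7 and 29.5 against 7.27, 5.66 and 6.69 TPM (log2 change 1.97, SE 0.098, adjusted p = 8.01e-06), and Ptgs2, which makes prostaglandins, 34.9, 35.5 and 33.97 against 9.77, 8.22 and 11.5 TPM (log2 change 1.73, SE 0.11, adjusted p = 2.49e-05). Icam1 rose (26.6 against 10.5 TPM, log2 change 1.26 ± 0.06) with the subunit gene Rela (126 against 61.3 TPM, log2 change 1.02 ± 0.08). Vcam1, often named beside Icam1 as a target, fell (6.71 against 16.1 TPM, log2 change -1.15 ± 0.10), and Tnfaip2 fell from 218, 206 and 211 to 69.7, 68.2 and 69.4 TPM (log2 change -1.60, SE 0.048, adjusted p = 1.05e-06). The list was therefore split, with the rises more frequent. Ripk3, the kinase that starts necroptosis, read 12.3, 12.001 and 10.8 TPM in the knockout and 0.255, 0.458 and 0.713 TPM in the re-expressing libraries (log2 change 3.12, SE 0.13, adjusted p = 4.70e-06).

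Interferon-stimulated genes did not share this. Only 3 of 18 rose and 6 fell. Of 16 MHC class I genes 4 rose and 5 fell: B2m, the light chain of every class I molecule, rose (368 against 236 TPM, log2 change 0.64 ± 0.07) and the nonclassical H2-T23 fell (17.2 against 48.8 TPM, log2 change -1.46 ± 0.095).

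Genes that the ERK kinases induce, and the feedback genes that restrain them, rose more often than fell: 13 of 24 were higher and 5 lower (median log2 change 0.49). Dusp1, a phosphatase that inactivates MAP kinases, read 47.6, 53.98 and 51.7 TPM in the knockout libraries and 6.19, 5.32 and 5.63 TPM in the re-expressing libraries (log2 change 2.96, SE 0.081, adjusted p = 6.49e-07). Dusp5, which acts on ERK in the nucleus, read 103, 112 and 111 against 38.2, 39.98 and 39.7 TPM (log2 change 1.45, SE 0.055, adjusted p = 2.84e-06), and Dusp6, its counterpart in the cytosol, rose by less (129 against 78.5 TPM, log2 change 0.71 ± 0.061). Fosl1, an AP-1 subunit, read 121, 147 and 130.0 against 51.8, 42.4 and 50.5 TPM (log2 change 1.44, SE 0.10, adjusted p = 3.38e-05), and Jun rose (24.003 against 11.1 TPM, log2 change 1.04 ± 0.1). None of these 5 genes had overlapping groups, which for most of them was a condition of being named. Spry1, another feedback inhibitor, fell (9.85 against 25.4 TPM, log2 change -1.29 ± 0.096).

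Genes of ribosome production rose as a group. Ribosomes are assembled in the nucleolus, where RNA polymerase I copies the ribosomal RNA genes and a series of factors modifies and folds the product; MYC is known to drive many of these factors. Of 40 tested nucleolar genes and MYC family members, 31 rose, 4 fell and 5 did not pass the test, with a median log2 change of 0.57 against 0.05 over all genes. Myc read 141, 148 and 117 TPM in the knockout libraries and 52.8, 49.99 and 55.5 TPM in the re-expressing libraries (log2 change 1.34, SE 0.096, adjusted p = 3.71e-05), whereas Mycn fell from a low level (1.004 against 3.61 TPM, log2 change -1.21 ± 0.12). The E-box CACGTG, the site to which MYC and related factors bind, lay within 250 bases before the start of 5 of the 34 members with a promoter in the RefSeq table (14.7%; both strands searched), against 6.05% of all 27025 promoters and 8.64% of the 9066 promoters of tested genes. The 5 were Nop2, Utp18, Rrn3, Nme1 and Mxd4, of which the first 3 rose, Nme1 did not pass the test and Mxd4 fell. Nop2, which methylates ribosomal RNA, had the largest change of the 5, and its promoter is printed to show the motif in place (RefSeq, GRCm38.p6, chr6:125131633-125131882, plus strand, ending at the base before the start; capitals mark the E-box, whose first base is 60 bases before the start).
Nop2: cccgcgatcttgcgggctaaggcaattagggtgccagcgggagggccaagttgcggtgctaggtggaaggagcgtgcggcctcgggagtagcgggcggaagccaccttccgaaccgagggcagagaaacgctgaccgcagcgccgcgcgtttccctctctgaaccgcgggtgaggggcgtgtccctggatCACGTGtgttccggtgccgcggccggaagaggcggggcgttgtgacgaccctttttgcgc

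Polr1a (GRCm38 chromosome 6, 71909053-71984935, plus strand), the largest subunit of RNA polymerase I, had the largest rise, from 20.9, 15.1 and 19.5 TPM in the re-expressing to 75.2, 77.7 and 71.6 TPM in the knockout libraries (log2 change 1.97, SE 0.12, adjusted p = 1.59e-05). Nolc1, a nucleolar scaffold, read 268, 286 and 253 against 78.9, 74.9 and 78.6 TPM (log2 change 1.78, SE 0.062, adjusted p = 1.87e-06). Nop2 read 149, 160.5 and 166 against 64.7, 57.8 and 57.9 TPM (log2 change 1.38, SE 0.07, adjusted p = 8.31e-06). In each of these 3 the knockout libraries lay far above the re-expressing libraries. Rrp12 (52.7 against 14.8 TPM, log2 change 1.76 ± 0.072), Utp20 (45.5 against 14.2 TPM, log2 change 1.62 ± 0.11) and Mybbp1a (259.9 against 101 TPM, log2 change 1.36 ± 0.059) rose as well, and so did the abundant Ncl (597 against 333 TPM, log2 change 0.84 ± 0.075) and Npm1 (1909 against 1298 TPM, log2 change 0.55 ± 0.084), which encode nucleolin and nucleophosmin. Ubtf, a polymerase I transcription factor, fell slightly (58.3 against 69.9 TPM, log2 change -0.26 ± 0.05), as did the MYC antagonist Mxd3 (9.26 against 17.96 TPM, log2 change -0.89 ± 0.074). After centring over transcript length 30 rose and 4 fell with a median of 0.63.

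The structural ribosomal proteins behaved otherwise: 10 of 77 cytosolic ribosomal protein genes rose and 15 fell (median -0.05). These transcripts are short, and after centring over length 28 rose and 6 fell (median 0.16), so no direction can be given for them. The CCT chaperonin, which folds actin and tubulin, rose in all 7 tested subunits (median 0.60; 6 of them with changes centred by chromosome), from Cct4 (195 against 166 TPM, log2 change 0.23 ± 0.051) to Cct7 (398 against 205 TPM, log2 change 0.95 ± 0.058). Of the heat-shock genes, Hsp90ab1 read 2685, 2675 and 2562 TPM in the knockout libraries and 1293, 1215 and 1237 TPM in the re-expressing libraries (log2 change 1.08, SE 0.065, adjusted p = 1.75e-05), and the small heat-shock gene Hspb1 rose (103 against 35.6 TPM, log2 change 1.51 ± 0.11). Cryab, another small heat-shock protein, was among the largest rises of all genes, at 95.9, 103 and 108 against 5.46, 4.48 and 5.26 TPM (log2 change 4.09, SE 0.086, adjusted p = 2.64e-07). No re-expressing library reached a knockout library in any of the 3, which was a condition of their being named. The heat-shock genes as a family moved less. Of 59 tested, 26 rose (44.1%) and 12 fell (20.3%), against 34.0% and 27.0% of all genes, with a median log2 change of 0.18.

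**Figure D3:**
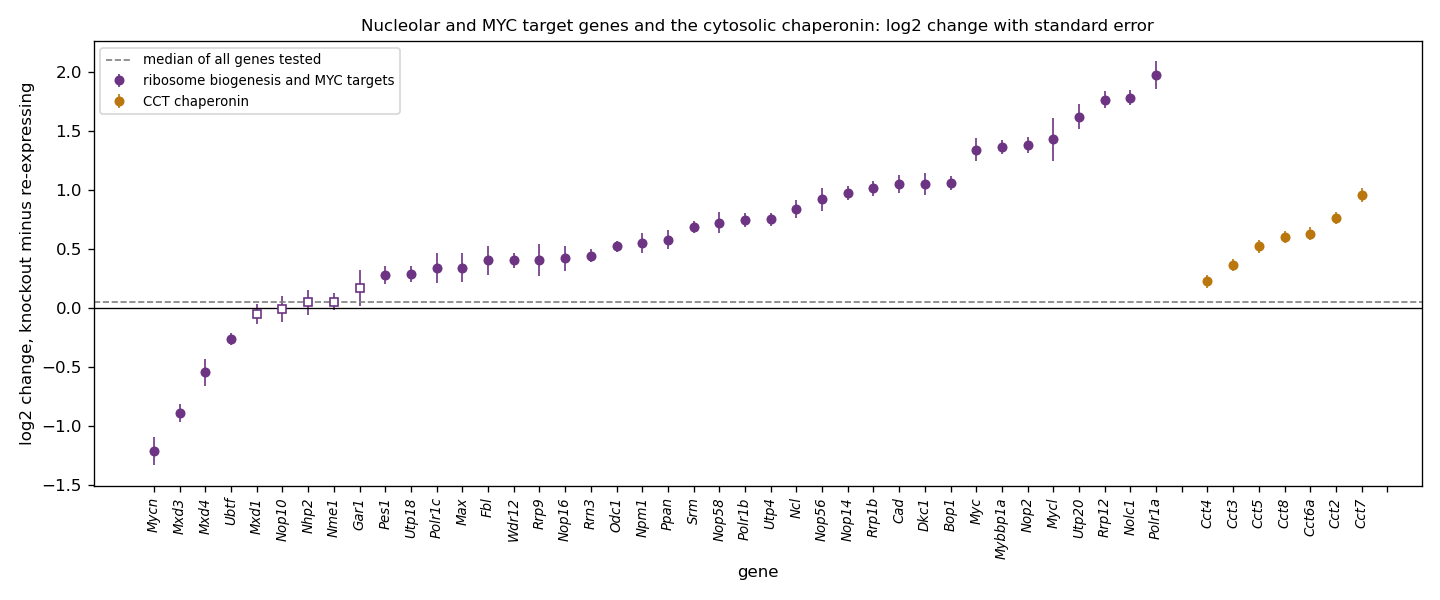
log2 change (knockout minus re-expressing) with its standard error for the 40 nucleolar genes and MYC family members (purple) and the 7 CCT subunits (orange), each group in rising order; filled circles passed the test and open squares did not. The dashed line is the all-gene median, 0.05. From Pes1 on all purple points lie above it, up to 1.97 for Polr1a, and Mycn, Mxd3, Mxd4 and Ubtf lie below 0.

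Cell cycle genes moved the same way by less. Of 48 S-phase genes 24 rose and 5 fell (median 0.26), and of 40 G2 and M genes 17 rose and 5 fell (median 0.14; 22 and 3, with a median of 0.22, after centring over length). Mcm2, part of the helicase that opens replication origins, read 134, 136 and 134 against 73.5, 70.3 and 69.6 TPM (log2 change 0.91, SE 0.048, adjusted p = 1.00e-05). Top2a read 283, 276 and 255 against 145, 144 and 143 TPM (log2 change 0.91, SE 0.056, adjusted p = 1.90e-05). Ccnb2, a mitotic cyclin, fell (73.7 against 123 TPM, log2 change -0.73 ± 0.062). The G1 cyclin Ccnd1 rose (513 against 345 TPM, log2 change 0.57 ± 0.051), and the inhibitor Cdkn1a, or p21, fell (8.78 against 13.7 TPM, log2 change -0.60 ± 0.17; no call without re-expressing library 1 or 3, -0.55 and -0.53) with the p53 target Btg2 (3.82 against 12.6 TPM, log2 change -1.50 ± 0.082), whereas Gadd45b rose (79.5 against 14.6 TPM, log2 change 2.37 ± 0.072). The p53 targets as a list were near the background, with 12 of 32 higher and 9 lower, and 8 and 8 with changes centred by chromosome. Among apoptosis regulators Bok, a BCL2 relative bound to intracellular calcium channels, read 55.5, 60.1 and 73.2 TPM in the knockout libraries and 353, 352 and 342 TPM in the re-expressing libraries (log2 change -2.46, SE 0.10, adjusted p = 3.63e-06).

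Of the lists plotted above, genes of the stomach and gut lining had the lowest median change. Leaving out the trefoil factors, 22 of 50 listed genes were tested, and 17 of them fell and 2 rose, with a median log2 change of -2.12; 15 fell by at least 1, where 5.99% of all genes did. The median was -2.07 after centring over length. Ctse (GRCm38 chromosome 1, 131638306-131675505, plus strand), cathepsin E of gastric surface cells, read 5.42, 5.65 and 6.19 TPM in the knockout libraries and 132, 144 and 146 TPM in the re-expressing libraries (log2 change -4.39, SE 0.071, adjusted p = 1.47e-07). Muc5ac, the mucin of the gastric surface, read 0.276, 0.247 and 0.357 against 23.5, 19.4 and 21.3 TPM (log2 change -4.11, SE 0.10, adjusted p = 4.62e-07), and Sult1c2, a sulfotransferase, 1.33, 1.51 and 1.05 against 37.8, 39.7 and 35.3 TPM (log2 change -4.07, SE 0.1, adjusted p = 4.59e-07). All 3 stayed under 10 TPM in the knockout. Cdh17, the gut cadherin, read 11.4, 12.5 and 10.5 against 131, 127 and 134 TPM (log2 change -3.40, SE 0.072, adjusted p = 2.71e-07), and Anxa10, a gastric annexin, 13.7, 12.4 and 10.6 against 116, 135 and 139 TPM (log2 change -3.31, SE 0.11, adjusted p = 1.63e-06). Vil1, villin of the brush border, and Lgals4, an intestinal galectin, fell too (Vil1 4.91 against 41.3 TPM, log2 change -2.85 ± 0.12; Lgals4 71.6 against 388 TPM, log2 change -2.42 ± 0.061). The 2 members that rose were Lgals2, another galectin of the gut, at 1337, 1382 and 1900.1 TPM against 469, 405 and 433 TPM (log2 change 1.80, SE 0.14, adjusted p = 5.46e-05), and Cdx2, the intestinal homeobox gene (21.2 against 15.4 TPM, log2 change 0.43 ± 0.061). Muc1, Galnt3 and Aqp5 did not pass the test. Cornified genes fell in 7 of 11 cases, Sprr1a among them (43.6 against 219 TPM, log2 change -2.32 ± 0.10), and Serpinb5, or maspin, was the 1 that rose (7.46 against 0.38 TPM, log2 change 2.61 ± 0.14); Sprr2a copies share sequence, so the split of reads among them is uncertain.

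The transcription factors that pattern foregut and duct epithelium were split, with 15 of 28 lower and 7 higher (median -0.73). A pair of paralogues parted. Gata4 read 1.77, 3.23 and 2.83 TPM in the knockout libraries and 18.9, 17.03 and 19.6 TPM in the re-expressing libraries (log2 change -2.45, SE 0.16, adjusted p = 2.67e-05), and Gata6, tied to the classical type of pancreatic cancer, read 34.7, 38.9 and 35.8 against 30.8, 33.5 and 30.5 TPM (log2 change 0.20, SE 0.069, adjusted p = 0.0412), a call lost on leaving out knockout library 2 or 3 or re-expressing library 1 or 3 (log2 change 0.15 to 0.21). The call of Gata6 was also lost after centring over length or by chromosome, and with median-of-ratios scaling or quantile normalization. It was lost as well without the filter on low values or without the variance trend. Thus Gata4 was low in each knockout library and its paralogue was not. Tfap2a (2.95 against 18.999 TPM, log2 change -2.35 ± 0.13), Onecut3 (0.632 against 7.61 TPM, log2 change -2.40 ± 0.11), Elf3 (6.48 against 26.7 TPM, log2 change -1.89 ± 0.073) and Klf4 (22.3 against 73.2 TPM, log2 change -1.67 ± 0.065) fell; Pdx1 (22.1 against 43.5 TPM, log2 change -0.95 ± 0.062) and Hnf4a (179.6 against 307 TPM, log2 change -0.78 ± 0.12) fell by less from higher levels, and Foxa2 did not pass the test (77.2 against 82.5 TPM, log2 change -0.10 ± 0.068). Sox9 and Sox4 rose (Sox9 22.05 against 11.7 TPM, log2 change 0.86 ± 0.069; Sox4 63.8 against 36.6 TPM, log2 change 0.78 ± 0.061), with Foxj1, the factor for motile cilia (17.9 against 8.02 TPM, log2 change 1.07 ± 0.12).

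Promoters of the gastric and intestinal list were searched for short cores of these factors over 250 bases before the start, both strands, in the 16 tested members that RefSeq's table held. The GATA core AGATAA was found in 3 (18.8%, against 10.3% of all promoters and 5.47% of those of tested genes), in Gkn2, Lgals2 and Slc26a9. The CDX core TTTATG was found in 1 (6.25%, against 11.1% and 5.38%) and the HNF4 core CAAAGTCCA in 1 (6.25%, against 0.381% and 0.320%). Lgals2, which rose, holds 2 of the 3 cores.

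**Figure D4:**
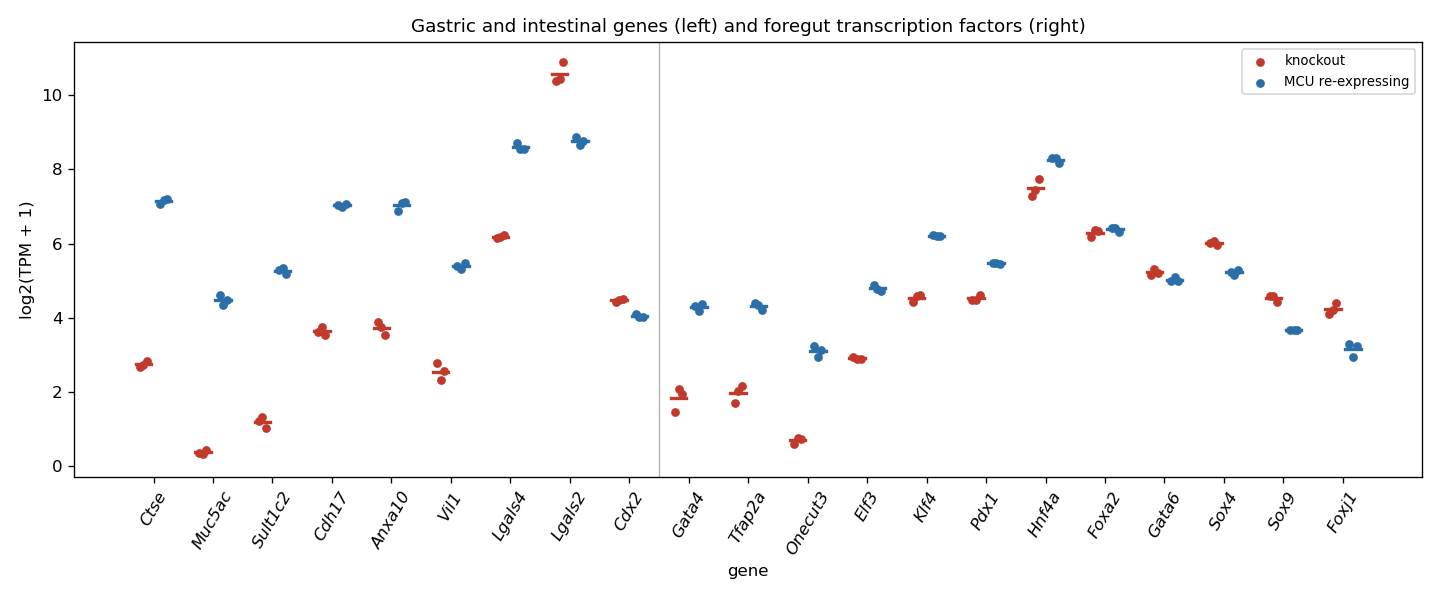
log2(TPM + 1) of 9 gastric and intestinal genes (left of the vertical line) and 12 foregut transcription factors (right) in the 3 knockout libraries (red) and 3 re-expressing libraries (blue), with a bar at each group mean. Ctse, Muc5ac and Sult1c2 show the widest gaps. Lgals2 and Cdx2 on the left and Sox4, Sox9 and Foxj1 on the right are higher in the knockout. Gata6 is slightly higher (log2 change 0.20), a call that most alternatives did not keep.

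Annexins and S100 proteins bind calcium and, for annexins, membranes. Of 12 annexins 8 fell and 2 rose (median -0.75): Anxa11 read 53.1, 56.2 and 57.2 TPM in the knockout and 196, 185 and 174 TPM in the re-expressing libraries (log2 change -1.72, SE 0.062, adjusted p = 2.32e-06), Anxa1 fell (65.8 against 174 TPM, log2 change -1.39 ± 0.065), and Anxa6 rose (97.1 against 26.7 TPM, log2 change 1.83 ± 0.083). Of 13 S100 genes 7 fell and 2 rose. S100a6, the most abundant, read 7871, 8133 and 8491 TPM against 16228, 14495 and 16077 TPM (log2 change -0.93, SE 0.11, adjusted p = 3.06e-04), and S100a7a, or psoriasin, rose from 33.99, 32.7 and 34.3 to 220.3, 217 and 232 TPM (log2 change 2.69, SE 0.052, adjusted p = 2.23e-07). The last gene moved against its family, as Anxa6 did, and for both the groups were far apart. S100 transcripts are short, and centring over length moved their median from -0.62 to -0.25. Tspan8, a tetraspanin of gut epithelium, fell (412 against 995 TPM, log2 change -1.27 ± 0.05).

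Actin-based structures went up. Of 33 tested genes 20 rose and 4 fell (median 0.39). Flnc, a filamin that crosslinks actin, read 96.8, 106 and 114 TPM in the knockout libraries and 7.198, 7.51 and 7.84 TPM in the re-expressing libraries (log2 change 3.64, SE 0.076, adjusted p = 2.64e-07). Cald1, caldesmon, read 138, 141 and 165 against 17.2, 14.8 and 18.1 TPM (log2 change 3.07, SE 0.099, adjusted p = 1.41e-06). Non-muscle myosin heavy chains rose: Myh10 read 20.1, 19.7 and 23.5 against 0.0519, 0.322 and 0.03 TPM (log2 change 4.29, SE 0.13, adjusted p = 1.16e-06) and Myh9 283 against 85.8 TPM, log2 change 1.71 ± 0.067. Myh10 was therefore measured almost only in the knockout, while Myh9 was abundant in both groups. Tpm2 rose (49.2 against 7.64 TPM, log2 change 2.55 ± 0.11), and Csrp2 fell (174 against 327 TPM, log2 change -0.91 ± 0.086). Srf, the factor that controls many of these genes, and its cofactor Mrtfa rose too (Srf 43.5 against 25.2 TPM, log2 change 0.74 ± 0.19, 0.48 and no call with changes centred by chromosome; Mrtfa 27.4 against 14.7 TPM, log2 change 0.86 ± 0.06).

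Serpins inhibit proteases, and 7 of 12 tested members rose and 4 fell (median 1.21). Serpinb9b read 20.8, 23.5 and 24.9 TPM in the knockout libraries and 3.86, 3.801 and 4.52 TPM in the re-expressing libraries (log2 change 2.25, SE 0.099, adjusted p = 4.90e-06), though reads may be split with related copies. Serpinh1, a collagen chaperone of the family, fell (65.6 against 85.5 TPM, log2 change -0.38 ± 0.064). The protease Plau, urokinase, read 25.4, 22.4 and 27.1 against 3.54, 2.64 and 3.74 TPM (log2 change 2.60, SE 0.13, adjusted p = 7.11e-06), and the urokinase receptor Plaur fell (178 against 240.3 TPM, log2 change -0.44 ± 0.072). The protease was therefore higher where its receptor was lower. Timp3, an inhibitor of metalloproteases, rose (15.8 against 1.33 TPM, log2 change 2.86 ± 0.091), as did the secreted protease Htra1 (37.5 against 6.598 TPM, log2 change 2.35 ± 0.12). The membrane protease Tmprss2 read 6.79, 7.29 and 6.78 against 64.96, 67.5 and 59.9 TPM (log2 change -3.03, SE 0.07, adjusted p = 3.79e-07). Mmp15 read 1.42, 1.58 and 2.04 against 20.6, 18.2 and 19.102 TPM (log2 change -2.93, SE 0.11, adjusted p = 2.68e-06); both were low in each knockout library.

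At cell junctions the members exchanged. Cdh1, E-cadherin, fell (167 against 230.0 TPM, log2 change -0.46 ± 0.072; -0.15 and no call with changes centred by chromosome), and Cdh2, N-cadherin, read 154, 154 and 142 TPM in the knockout libraries and 35.2, 34.9 and 36.2 TPM in the re-expressing libraries (log2 change 2.05, SE 0.055, adjusted p = 6.21e-07). Cdh6 rose (18.2 against 4.05 TPM, log2 change 1.93 ± 0.097) and Cdh16 fell (0.493 against 21.2 TPM, log2 change -3.87 ± 0.19). Cdh1 remained above 150 TPM in each knockout library, and Vim did not pass the test (1824 against 1847 TPM, log2 change -0.02 ± 0.079). Pkp1, a desmosome plaque protein, read 11.1, 10.8 and 11.9 against 0.0657, 0.0448 and 0.12 TPM (log2 change 3.51, SE 0.094, adjusted p = 6.20e-07). At tight junctions, Tjp1, the scaffold ZO-1, rose (114 against 52.1 TPM, log2 change 1.12 ± 0.074) while Tjp3, or ZO-3, read 0.749, 0.458 and 0.723 against 7.64, 8.57 and 6.57 TPM (log2 change -2.38, SE 0.13, adjusted p = 1.17e-05). Among claudins, which seal or leak the junction, Cldn2 fell (104 against 219 TPM, log2 change -1.06 ± 0.06) and Cldn4 rose from a low level (6.15 against 0.259 TPM, log2 change 2.49 ± 0.15). Marveld2 (1.27 against 8.03 TPM, log2 change -1.99 ± 0.10) and the polarity gene Crb3 (19.6 against 53.1 TPM, log2 change -1.40 ± 0.068) fell. The keratins split as well: Krt7 rose (237 against 39.1 TPM, log2 change 2.55 ± 0.22) and Krt19 fell (385 against 826 TPM, log2 change -1.10 ± 0.056). Of the adhesion receptors, the collagen-binding Itga2 rose (66.05 against 22.7 TPM, log2 change 1.50 ± 0.064), the laminin-binding Itga7 fell (3.72 against 30.6 TPM, log2 change -2.74 ± 0.074) and the laminin chain Lamb3 rose (28.1 against 6.88 TPM, log2 change 1.88 ± 0.10).

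Around the uniporter itself changes were small as deposited, with 1 of 7 tested genes higher and 2 lower (median log2 change 0.07). With changes centred by chromosome 1 was higher and 5 were lower, with a median of -0.26. Micu2 fell (19.7 against 29.96 TPM, log2 change -0.58 ± 0.083) and Mcur1 fell (11.2 against 14.4 TPM, log2 change -0.33 ± 0.08), and Smdt1, Mcub and Micu3 did not pass the test, with Smdt1 at 158, 160.1 and 196 TPM in the knockout libraries and 212, 193 and 185 TPM in the re-expressing libraries. Mitochondrial calcium exit and pore genes fell in 7 of 11 and rose in 1, all by less than 1 on the log2 scale. Spg7, a matrix protease linked to the permeability transition pore, read 32.6, 38.2 and 32.2 TPM in the knockout libraries and 69.9, 65.2 and 68.3 TPM in the re-expressing libraries (log2 change -0.96, SE 0.079, adjusted p = 6.41e-05), and its partner Afg3l2 rose (46.3 against 37.7 TPM, log2 change 0.29 ± 0.058; 0.18 and no call after centring over length). The adenine nucleotide carrier Slc25a4 fell (242 against 374 TPM, log2 change -0.63 ± 0.064), with Vdac1 of the outer membrane (205 against 249 TPM, log2 change -0.28 ± 0.051). The sodium-calcium exchanger Slc8b1, which lets calcium out, did not pass the test (7.28 against 9.51 TPM, log2 change -0.36 ± 0.17).

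Matrix calcium is known to act on pyruvate dehydrogenase through its phosphatase and on the 2-oxoglutarate and NAD-linked isocitrate dehydrogenases. Pdk3, a kinase that switches pyruvate dehydrogenase off, read 17.1, 17.4 and 17.1 TPM in the knockout libraries and 0.759, 0.822 and 0.98 TPM in the re-expressing libraries (log2 change 3.30, SE 0.086, adjusted p = 5.45e-07), and Pdk4 rose from a low level (2.47 against 0.496 TPM, log2 change 1.21 ± 0.29). The enzyme's own subunit Pdha1 fell (124 against 157 TPM, log2 change -0.33 ± 0.048). Ogdh of the 2-oxoglutarate complex rose (78.97 against 58.9 TPM, log2 change 0.42 ± 0.05). Pdk3 was under 1 TPM in each re-expressing library and at 17 TPM in each knockout library. Most called members of this list were lower, however. Of 18 tested genes 3 rose (16.7%) and 9 fell (50%), against 34.0% and 27.0% of all genes, with a median log2 change of -0.15. After centring over length 4 rose and 7 fell.

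Calcium stores of the endoplasmic reticulum showed larger changes. The store is filled by SERCA pumps, emptied by IP3 receptors and sensed by STIM proteins, which open ORAI channels. Atp2a3, which encodes the pump SERCA3, read 0.963, 0.497 and 0.859 TPM in the knockout libraries and 16.7, 16.1 and 15.3 TPM in the re-expressing libraries (log2 change -3.27, SE 0.12, adjusted p = 2.66e-06), while Atp2a2, the widespread pump, rose slightly (183 against 139 TPM, log2 change 0.40 ± 0.049). Itpr1 read 12.1, 14.4 and 15.4 against 3.54, 2.65 and 2.36 TPM (log2 change 1.96, SE 0.14, adjusted p = 3.97e-05), and Itpr3, the more abundant receptor, rose by less (88.2 against 62.2 TPM, log2 change 0.50 ± 0.057; 0.08 and no call after centring over length). Stim1 rose (30.3 against 14.4 TPM, log2 change 1.03 ± 0.083) and Orai3 fell (7.46 against 18.4 TPM, log2 change -1.19 ± 0.067). As deposited, Itpr1, Itpr3 and Stim1 were thus higher in the knockout and Atp2a3 and Orai3 lower. Over the list 10 of 20 rose and 7 fell, and 7 and 6 after centring over length. By at least 1 on the log2 scale 2 rose and 4 fell.

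The respiratory chain's genes fell as deposited, and by less after centring over transcript length. Of 80 tested nuclear-encoded genes of complexes I to IV and the ATP synthase, 9 rose and 36 fell (median -0.32), without knockout library 3 10 rose and 43 fell, and after centring over length 19 rose and 17 fell (median -0.08, 78 genes). Atp5e, among the shortest, read 272, 332 and 662 TPM in the knockout libraries and 916, 852 and 823 TPM in the re-expressing libraries (log2 change -1.14, SE 0.30, adjusted p = 0.0145). Ndufa2 read 165, 169 and 340.4 against 394, 405 and 398 TPM (log2 change -0.91, SE 0.26, adjusted p = 0.0209). In both, library 3 lay closer to the re-expressing cells than the other 2 did. The call of Ndufa2 was lost without any single library except knockout library 3 (-0.92 to -0.73), and that of Atp5e without knockout library 2 (-1.02). Ndufa9 was among the subunits that rose (114 against 80.9 TPM, log2 change 0.49 ± 0.047). By complex, centring over length took complex I from -0.27 to -0.07, complexes II and III from -0.29 to -0.02, complex IV from -0.45 to -0.09 and the ATP synthase from -0.24 to -0.15 in median log2 change. With changes centred by chromosome these medians were, in the same order, -0.32, -0.29, -0.41 and -0.50.

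**Figure D5:**
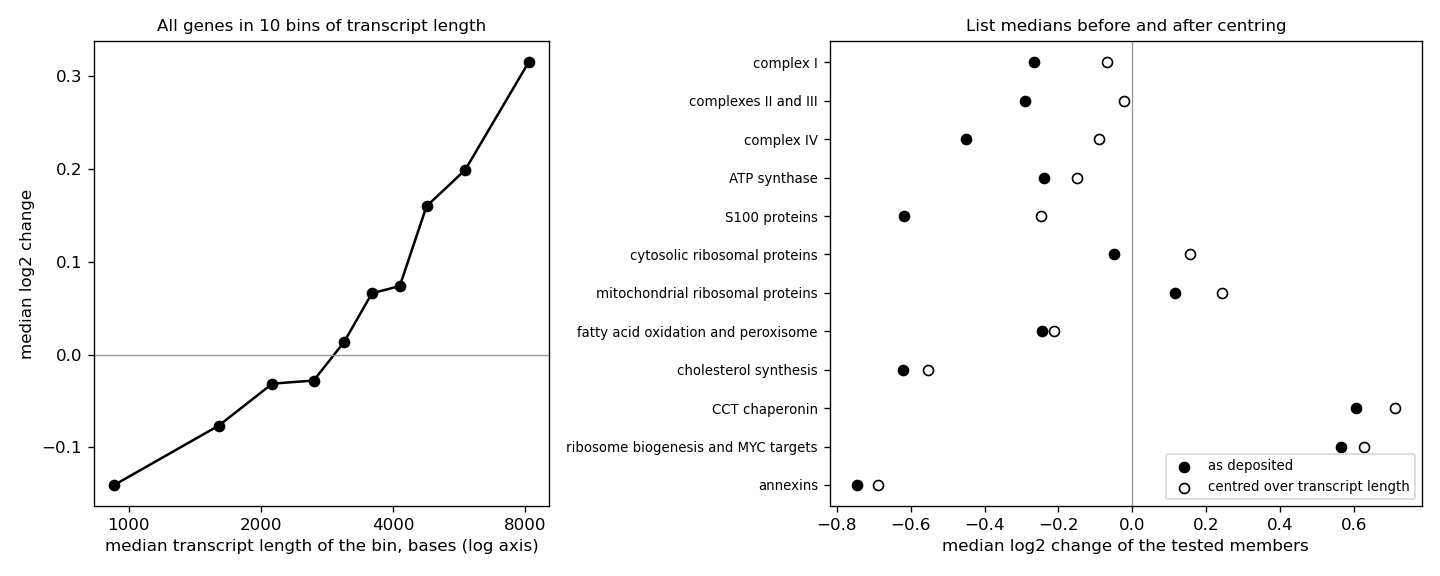
Left, median log2 change (knockout minus re-expressing) of all tested genes in 10 bins of transcript length, plotted at each bin's median length on a log axis; it goes from -0.14 at 928 bases to 0.31 at 8132 bases. Right, median log2 change of the tested members of 12 lists as deposited (filled) and after centring over length (open). The respiratory complexes move towards 0, and annexins, cholesterol synthesis, the CCT chaperonin and ribosome biogenesis keep their side.

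Genes for the upkeep of mitochondria were more often higher: 16 of 33 genes of dynamics, quality control and mitophagy rose and 6 fell (median 0.39). With changes centred by chromosome 12 rose and 6 fell, with a median of 0.08. The matrix protease Lonp1 rose (159 against 95.2 TPM, log2 change 0.73 ± 0.067), as did the chaperonin Hspd1 (638 against 397 TPM, log2 change 0.68 ± 0.058), the cristae scaffold Immt (242 against 144 TPM, log2 change 0.75 ± 0.065), the fusion genes Mfn1 (28.3 against 19.4 TPM, log2 change 0.52 ± 0.077) and Mfn2 (38.6 against 27.6 TPM, log2 change 0.47 ± 0.062) and the DNA helicase Twnk (35.6 against 16.1 TPM, log2 change 1.10 ± 0.068). Of the mitophagy genes, Pink1 fell (8.79 against 17.5 TPM, log2 change -0.93 ± 0.11) and Bnip3 fell (23.7 against 52.7 TPM, log2 change -1.12 ± 0.11). Both take part in marking mitochondria for removal.

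The genes of 2 lactate carriers moved in opposite directions, and Slc16a1 stayed the more abundant in both groups. Slc16a3, the MCT4 exporter of glycolytic cells, read 28.8, 31.1 and 45.8 TPM in the knockout libraries and 0.445, 0.505 and 1.45 TPM in the re-expressing libraries (log2 change 4.35, SE 0.25, adjusted p = 1.47e-05), while Slc16a1, or MCT1, read 49.8, 47.002 and 49.9 against 95.5, 99.9 and 97.3 TPM (log2 change -0.98, SE 0.052, adjusted p = 1.00e-05). In glycolysis 11 of 25 genes rose and 6 fell (8 and 7 with changes centred by chromosome): Hk2, which commits glucose, rose (25.1 against 11.1 TPM, log2 change 1.10 ± 0.079), Eno1 rose (2203 against 1323 TPM, log2 change 0.73 ± 0.091), and Aldoc (5.02 against 38.99 TPM, log2 change -2.75 ± 0.15) and Ldha (1393 against 1913 TPM, log2 change -0.46 ± 0.086) fell. The hypoxia-regulated genes did not move together, with 10 of 24 higher and 8 lower. Car9, a surface carbonic anhydrase, read 2.2996, 0.779 and 0.75 TPM in the knockout libraries and 16.5, 17.1 and 18.4 TPM in the re-expressing libraries (log2 change -3.08, SE 0.24, adjusted p = 5.80e-05). Egln3, a prolyl hydroxylase, read 9.26, 9.78 and 9.49 against 51.4, 51.4 and 51.8 TPM (log2 change -2.32, SE 0.056, adjusted p = 4.17e-07). Both were lower in each knockout library while Vegfa and P4ha2 (27.2 against 11.2 TPM, log2 change 1.21 ± 0.085) rose and Hif1a was 59.8 against 51.5 TPM, log2 change 0.21 ± 0.073.

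Around the citric acid cycle the NADP-linked isocitrate dehydrogenases of cytosol and mitochondria fell: Idh1 read 52.6, 52.1 and 46.3 TPM in the knockout libraries and 166, 171 and 165 TPM in the re-expressing libraries (log2 change -1.71, SE 0.064, adjusted p = 2.62e-06). Idh2 read 58.6, 57.3 and 61.2 against 133, 131 and 130.5 TPM (log2 change -1.14, SE 0.05, adjusted p = 4.78e-06). The citrate carrier Slc25a1 fell (94.7 against 209.6 TPM, log2 change -1.14 ± 0.051), whereas Cs, citrate synthase, rose (241 against 156 TPM, log2 change 0.63 ± 0.055), and Gls2, a glutaminase, rose (12.6 against 5.198 TPM, log2 change 1.14 ± 0.14). Citrate synthesis and citrate export genes thus moved apart. Over the list 10 of 35 rose and 15 fell, and 6 and 16 with changes centred by chromosome.

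Sterol genes are switched on by SREBP2, encoded by Srebf2, when membranes are poor in cholesterol. Of 29 tested genes of the pathway and its control 20 fell and 3 rose (median -0.62, -0.55 after centring over length). The sterol regulatory element TCACNCCA lay within 250 bases before the start of 3 of the 20 members with a promoter in the table (15.0%; both strands), against 3.58% of all promoters and 3.08% of those of tested genes. Those of Hmgcs1 and Msmo1, an early and a late enzyme of the pathway, are printed to show the element before the RefSeq start. The last of the 3 was Srebf2 itself. The stretches are from RefSeq, GRCm38.p6 (Hmgcs1 chr13:119690101-119690350, plus strand, and Msmo1 chr8:64733579-64733828, minus strand). Capitals mark the element, whose first base lies 137 and 177 bases before the start. GENCODE places the Msmo1 gene at 64718139-64733792, so the Msmo1 element lies inside the gene as annotated there.
Hmgcs1: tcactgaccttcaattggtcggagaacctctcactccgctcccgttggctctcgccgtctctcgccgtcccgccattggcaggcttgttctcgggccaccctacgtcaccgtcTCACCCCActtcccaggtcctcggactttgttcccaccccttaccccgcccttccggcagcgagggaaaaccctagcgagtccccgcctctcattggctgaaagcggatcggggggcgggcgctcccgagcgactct
Msmo1: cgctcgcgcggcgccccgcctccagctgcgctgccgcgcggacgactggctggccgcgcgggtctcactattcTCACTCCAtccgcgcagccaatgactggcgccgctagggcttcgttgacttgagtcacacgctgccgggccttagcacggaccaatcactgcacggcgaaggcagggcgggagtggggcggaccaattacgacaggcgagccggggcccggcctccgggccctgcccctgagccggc

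Pmvk, which phosphorylates mevalonate phosphate, read 13.6, 18.1 and 21.2 TPM in the knockout libraries and 75.6, 73.03 and 64.8 TPM in the re-expressing libraries (log2 change -1.97, SE 0.15, adjusted p = 5.02e-05). Hmgcs1 (98.4 against 176 TPM, log2 change -0.83 ± 0.05) and Msmo1 (148 against 231 TPM, log2 change -0.64 ± 0.11) fell, and Srebf2, on chromosome 15, rose (189 against 138 TPM, log2 change 0.45 ± 0.046; -0.05 with changes centred by chromosome). Fatty acid synthesis split at its end: Fasn read 184, 184 and 150.0 against 82.6, 74.8 and 80.5 TPM (log2 change 1.11, SE 0.093, adjusted p = 7.29e-05) and Acaca rose (45.2 against 25.5 TPM, log2 change 0.80 ± 0.088), while the desaturase Scd1 read 76.3, 73.7 and 62.2 against 229, 229.5 and 215 TPM (log2 change -1.66, SE 0.085, adjusted p = 8.85e-06). The fat droplet gene Cidec fell (0.378 against 9.65 TPM, log2 change -2.95 ± 0.11). Over the list of fatty acid synthesis and storage 8 of 29 genes rose and 13 fell, and 6 and 17 with changes centred by chromosome. Fatty acid oxidation and peroxisome genes fell in 19 of 39 cases and rose in 6, with Acadm (31.3 against 55.7 TPM, log2 change -0.81 ± 0.067) and Acaa2 (24.2 against 47.7 TPM, log2 change -0.95 ± 0.072) lower.

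One-carbon metabolism, which feeds nucleotide synthesis, had 10 of 21 genes higher and 3 lower, and 7 and 3 with changes centred by chromosome. Shmt2 read 189, 207 and 182 TPM in the knockout libraries and 104, 97.3 and 105 TPM in the re-expressing libraries (log2 change 0.91, SE 0.066, adjusted p = 4.06e-05). Mthfd1l read 43.5, 44.2 and 45.1 against 20.8, 20.7 and 20.2 TPM (log2 change 1.07, SE 0.052, adjusted p = 7.39e-06). Both encode enzymes of the mitochondrial branch, in which Aldh1l2 rose too (4.895 against 1.499 TPM, log2 change 1.23 ± 0.12). Atf4, which controls such genes and amino acid uptake under stress, rose as deposited (299 against 224 TPM, log2 change 0.41 ± 0.096) but not with changes centred by chromosome (-0.09; chromosome 15). Slc3a2, the shared heavy chain of amino acid exchangers, read 412, 432 and 481 against 147, 147 and 148 TPM (log2 change 1.57, SE 0.067, adjusted p = 4.44e-06), while its cystine-importing partner Slc7a11 fell (3.16 against 6.87 TPM, log2 change -0.92 ± 0.091).

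Antioxidant and detoxifying genes were lower on balance: 20 of 44 fell and 9 rose. Gsta4 read 29.6, 28.4 and 31.2 TPM in the knockout libraries and 243, 252 and 225 TPM in the re-expressing libraries (log2 change -2.97, SE 0.064, adjusted p = 2.91e-07), Gsta1 fell (10.5 against 209 TPM, log2 change -4.19 ± 0.07; near-identical Gsta copies make its value uncertain) and Mgst3 fell (81.7 against 374 TPM, log2 change -2.19 ± 0.11). These transferases attach glutathione to reactive compounds, and 9 of 16 fell and 2 rose, 7 and 5 after centring over length. Nfe2l2, which encodes NRF2, fell (81.5 against 113 TPM, log2 change -0.47 ± 0.097) with Gclc, which starts glutathione synthesis (46.4 against 89.9 TPM, log2 change -0.94 ± 0.076), but Txnrd1 (171 against 108 TPM, log2 change 0.65 ± 0.061) and Hmox1 (35.7 against 17.4 TPM, log2 change 1.00 ± 0.10) rose. Of the cytochromes P450, 4 of 13 rose and 7 fell. The alcohol dehydrogenase gene Adh7 and the cytochrome gene Cyp2c65 were among the largest falls of all genes, with Adh7 at 0.0606, 0.0238 and 0.135 against 20.6, 16.6 and 17.9 TPM (log2 change -4.17, SE 0.11, adjusted p = 5.77e-07) and Cyp2c65 at 1.45, 1.13 and 1.08 against 32.5, 31.8 and 36.4 TPM (log2 change -3.96, SE 0.099, adjusted p = 5.08e-07). In a list of genes tied to stem-like and drug-tolerant tumour cells 9 of 15 rose and 5 fell, and the exporters Abcg2 (29.4 against 12.4 TPM, log2 change 1.20 ± 0.14) and Abcb1b (69.4 against 16.1 TPM, log2 change 2.05 ± 0.14), the last with a near copy, Abcb1a, were among the rises. Of the aldehyde dehydrogenases 5 of 12 rose and 5 fell: Aldh1a1 rose (15.2 against 1.34 TPM, log2 change 2.79 ± 0.095) and Aldh3a1 fell (3.23 against 33.2 TPM, log2 change -3.10 ± 0.27), and among the stem-like markers Dclk1 rose (7.95 against 1.17 TPM, log2 change 2.04 ± 0.12) and Prom1 fell (1.78 against 20.7 TPM, log2 change -3.00 ± 0.22).

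Iron storage showed an exchange of subunits. Fth1, the ferritin heavy chain, read 4263, 4205 and 4164 TPM in the knockout libraries and 1992, 2223 and 1869.8 TPM in the re-expressing libraries (log2 change 1.06, SE 0.087, adjusted p = 6.78e-05), and Ftl1, the light chain, 3860.2, 4199 and 4832 against 5987, 5886 and 5835 TPM (log2 change -0.46, SE 0.11, adjusted p = 0.00749). The iron exporter Slc40a1 fell (4.33 against 19.4 TPM, log2 change -1.94 ± 0.099). Lysosomal genes fell in 21 of 41 cases and rose in 7 (median -0.23): Ctsh read 75.2, 55.1 and 73.7 against 414, 351 and 395 TPM (log2 change -2.50, SE 0.13, adjusted p = 9.24e-06) and Galns fell (7.23 against 21.9 TPM, log2 change -1.49 ± 0.14), while Ctsl (496 against 191 TPM, log2 change 1.33 ± 0.20) and Psap (486 against 271 TPM, log2 change 0.84 ± 0.062) rose. Tfeb, a transcription factor for lysosomal genes, fell (9.58 against 14.3 TPM, log2 change -0.53 ± 0.099). Solute carriers, 184 tested, were split at 46 higher and 74 lower. The zinc importer Slc39a4 read 68.03, 66.7 and 58.9 TPM in the knockout libraries and 6.12, 5.37 and 4.77 TPM in the re-expressing libraries (log2 change 3.35, SE 0.1, adjusted p = 1.01e-06), and the sulfate carrier Slc26a2 17.9, 16.2 and 17.9 against 80.9, 86.8 and 78.9 TPM (log2 change -2.18, SE 0.067, adjusted p = 1.14e-06). The chloride cotransporter Slc12a2 fell (71.8 against 148 TPM, log2 change -1.03 ± 0.063) with Fxyd5, a regulator of the sodium pump (20.8 against 90.6 TPM, log2 change -2.12 ± 0.21), and of 25 epithelial channels and pumps 15 fell and 6 rose.

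Some genes were switched between measured and near 0. With every library of 1 group at or under 0.1 TPM, every library of the other at 1 TPM or more and a mean there of at least 5 TPM, 27 genes were near 0 in the re-expressing cells and 8 near 0 in the knockout. Among the 27 were Ret, Gdnf, Gas6 and Cxcl1, the matricellular Thbs4 (20.5, 20.2 and 21.8 TPM, then listed at 0 in all 3 re-expressing libraries), the tumour suppressor Dlc1 (5.53, 6.06 and 5.62 TPM and 0), the Toll-like receptor chaperone Unc93b1 (12.5, 11.8 and 16.2 TPM and 0), and the developmental transcription factors Wt1 (5.87, 6.81 and 4.39 TPM and 0) and Lhx9 (5.55, 5.98 and 4.64 TPM and 0). Near 0 in the knockout were Kctd15 (0, then 10.9, 12.3 and 12.02 TPM), Xlr3a (0, then 9.47, 16.1 and 11.6 TPM), Ern2, the stress sensor of mucus-making epithelium (0, then 8.09, 6.36 and 6.48 TPM), and Chdh, which oxidises choline (9.87, 9.17 and 8.11 TPM in the re-expressing libraries). The rises outnumbered the falls among these genes. Each knockout library also had more genes at 1 TPM or more, 11461 to 11480 against 11231 to 11269. An exact 0 may also be a failed estimate, so no fold is given in this paragraph. The log2 changes of Gdnf and Gas6 given above rest in part on such zeros.

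Imprinted genes, of which 1 parental copy is normally silent, held some of the widest gaps: 5 of 16 rose and 7 fell. Nnat read 58.96, 63.2 and 63.2 TPM in the knockout libraries and 2.58, 3.41 and 1.99 TPM in the re-expressing libraries (log2 change 4.12, SE 0.14, adjusted p = 1.75e-06). Ndn read 14.1, 14.1 and 14.5 TPM against 0 in all 3. Mest read 2.57, 3.63 and 2.07 against 37.1, 38.9 and 37.1 TPM (log2 change -3.39, SE 0.15, adjusted p = 4.82e-06). Slc22a18 and Phlda2 fell as well (Slc22a18 1.08 against 20.4 TPM, log2 change -3.37 ± 0.10; Phlda2 6.69 against 42.4 TPM, log2 change -2.52 ± 0.18). Genes known from neurons and neuroendocrine cells were split, with 7 of 14 higher and 5 lower. Among the higher, Map2 read 74.9, 82.4 and 66.8 against 4.41, 3.98 and 4.04 TPM (log2 change 3.88, SE 0.091, adjusted p = 3.87e-07) and Ncam1 rose (21.5 against 4.397 TPM, log2 change 2.06 ± 0.067). Selp, the adhesion protein P-selectin, read 47.7, 50.4 and 48.4 against 1.899, 1.84 and 2.45 TPM (log2 change 4.03, SE 0.094, adjusted p = 3.87e-07). For each of these 3 genes the knockout libraries lay close together and far above the others. Chromatin genes were nearer to the background, with 19 of 41 higher and 8 lower, and 15 and 12 after centring over length; the linker histone H1f0 fell (119.6 against 307 TPM, log2 change -1.35 ± 0.049) and H1f10 rose (24.2 against 4.79 TPM, log2 change 2.13 ± 0.14).

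Line 2838 of the same series, with 2 wild-type clones and 2 CRISPR knockout clones of 3 libraries each in batch 2, gives a side-by-side view, without a test of the difference between lines. It differs from line 1151 in the line, the way the gene was lost, the control and the batch, and these cannot be told apart. Over the 11081 genes tested in both, the median log2 change was 0.05 in line 1151 and 0.08 between the knockout and wild-type clone means of line 2838. Gastric and intestinal genes had medians of -1.27 in line 1151 and 0.43 in line 2838, where the 4 pairs of clones ranged from 0.33 to 0.62 (17 genes). For cholesterol synthesis they were -0.62 and 0.11 (-0.04 to 0.19, 29 genes), and for annexins -0.75 and 0.20 (0.15 to 0.36, 12 genes). Ribosome biogenesis genes had 0.55 and 0.06 (0.03 to 0.15, 39 genes), chemokines 0.60 and -0.07 (-0.22 to 0.22, 23 genes) and VEGF genes 0.52 and -0.31 (-0.32 to -0.22, 12 genes). In these 6 lists, chosen after their values were seen, the medians of line 1151 lay outside the range of clone pairs of line 2838. Over all 94 lists and families with a gene tested in both lines, the median of line 1151 lay inside that range in 35. Those inside included S phase genes (0.26; -0.38 to 0.53), glycolysis (0.22; 0.02 to 0.33), the EGF family (0.21; -0.03 to 0.41) and keratins (0.51; 0.37 to 0.67).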

How the data were processed

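RNA of 18 libraries was sequenced as polyadenylated messenger RNA, and the 6 of line 1151 were analysed. The deposited values are TPM per gene; per the submitters' processing notes, Salmon and DESeq2 were used with the mouse build mm10, and versions, annotation and filters are not given in the sources used here. Salmon assigns reads to transcripts and TPM divides by their length, so near-identical copies and length can move values. No value column was left unmatched to a sample, and no libraries were identical.

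From the TPM values, genes of at least 1 TPM in 3 or more libraries were kept, a pseudocount of 1 was added, and limma 3.58.1 in R 4.3.3 (variance trend, moderated test, Benjamini-Hochberg adjustment over all 11630 genes, threshold 0.05) compared the groups. The script was tested on simulated data. Chromosomes, positions and transcript lengths came from GENCODE M21 on GRCm38, the mm10 build, matched by symbol (11391 and 11410 genes), and promoters from RefSeq. Lists and families, 100 in all, and the genes described were chosen with earlier results of these data known. Named genes are, per list, up to 6 called members in each direction without overlap and with at least 5 TPM in the higher group, the 30 largest rises and falls, and a set of tumour and uniporter genes; Aldh1l2, Atp2a2, Axin2, Axl, Cct4, Chdh, Cxcl16, Dlc1, Dusp6, Ern2, Fgfr4, Foxa2, Gas6, Gclc, Gdnf, Hes1, Hey1, Hmgcs1, Hnf4a, Il15, Kctd15, Lhx9, Mfn1, Mfn2, Mrtfa, Msmo1, Mycn, Ncl, Npm1, Pdk4, Pdx1, Slc8b1, Sp5, Srf, Tfeb, Vil1 and Wt1 were chosen after their values were seen. Certain genes within the rule are not reported here. Alternatives changed the pseudocount, filter, scaling, trend, pairing, samples sharing the spread and libraries, and centred changes per chromosome or, chosen after seeing the data, over 20 bins of transcript length.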

Additional observations from a re-analysis of the deposited data

How the results depend on the processing

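Over 17 alternatives, 233 of the 259 named genes that passed the test kept their direction and their side of the threshold in each one that tested them, and no named gene reversed except Atf4 (-0.085) and Srebf2 (-0.045), both with changes centred per chromosome. The counts of 3958 higher and 3140 lower genes became 2434 and 2128 when the spread was estimated over all 18 libraries, and the 874 large rises became 526 among genes with a mean of at least 5 TPM, where fewer genes are tested. Leaving out 1 library at a time gave 3515 to 4111 higher and 2709 to 3260 lower genes, with 845 to 947 large rises and 679 to 770 large falls. The share of calls that were higher, 55.8%, was 50.6% with median-of-ratios scaling, 50.9% with quantile normalization, 48.9% with changes centred per chromosome and 54.1% over transcript length, which kept 5930 of 6971 calls. Depth is unknown in TPM, so how it limits low genes cannot be given.

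Same-numbered libraries did not deviate together (correlations -0.03, -0.14 and -0.15), and differently numbered libraries of the groups gave -0.13 to 0.19. With so few libraries this cannot decide whether the replicate numbers pair them, and the labels do not say. With the replicate number as a block 3736 genes were higher and 2936 lower.

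Of 46 lists followed through every alternative, 6 had a median that changed sign. Over transcript length these were Wnt genes (-0.064) and cytosolic ribosomal proteins (0.16). The latter also changed with quantile normalization (0.0038) and ranged from -0.069 to 0.00010 on leaving out 1 library. Per chromosome, hypoxia-regulated genes (-0.037) and p53 targets (-0.051, and -0.0017 with median-of-ratios scaling) changed. Aldehyde dehydrogenases changed over genes of at least 5 TPM (-0.16) and on leaving out 1 library (-0.029 to 0.088). They did so too with median-of-ratios scaling (-0.040) and quantile normalization (-0.025). MHC class I genes changed on leaving out 1 library (-0.067 to 0.040). Further lists, outside these 46, changed sign as well. Per chromosome they included the uniporter list (-0.26), mitochondrial ribosomal proteins (-0.017) and caveolae (-0.067). Over transcript length they included iron handling (-0.053), guidance genes (-0.070) and the Notch pathway (-0.0095). The cause was not tested.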
